A study of Mus musculus with 12 samples.

Results

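The comparison described here sets 3 libraries labelled Pkd1 KO against 3 control libraries of the same mouse line, 6 of the 12 libraries in the series, chosen by their titles and genotype labels. Each library holds RNA of whole kidney at postnatal day 15. The titles of the KO-labelled libraries read hoxpkd1homo, which is taken here as homozygous for a Pkd1 change combined with Hoxb7-Cre. Control titles read hoxpkd1het, while the genotype label of the same libraries is WT, so the controls may carry 1 changed allele and are called Pkd1 controls here. The labels give no treatment, strain, sex or Pkd1 allele, and do not say whether the controls carry Cre. The other 6 libraries, 3 titled hoxcep120homo and 3 hoxcep120het, are whole kidney of a Cep120 line at the same age and serve as the outside comparison.

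Hoxb7-Cre is known to cut floxed genes in the ureteric bud and its collecting ducts, while the remaining nephron segments keep theirs. Nothing in the labels ties each library to an animal of its own. The p-values therefore measure the spread between libraries, which may be technical, and this spread was estimated over all 12 libraries together.

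Polycystin-1, the product of Pkd1, is a large membrane protein of cilia and cell junctions, and its loss from tubule cells leads to cysts. In a healthy kidney the proximal tubule reclaims glucose, phosphate and filtered protein and burns fatty acids for energy. The thick limb and the distal convoluted tubule reclaim salt, and the collecting duct sets water loss under vasopressin. Kidneys with many cysts are known for raised cyclic AMP, thickened basement membrane, stromal matrix and inflammation, so genes of these processes were followed in 23 lists.

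Pkd1 (ENSMUSG00000032855) itself was not lower in the libraries labelled Pkd1 KO. It was at 36.4, 26.2 and 23.9 CPM (counts scaled to a common library size with TMM factors) in Pkd1 KO 1 to 3 and at 16.1, 13.9 and 21.6 CPM in Pkd1 controls 1 to 3. All 3 KO-labelled libraries lay above all 3 controls, though Pkd1 KO 3 and Pkd1 control 3 were close. The log2 fold change was 0.74 (SE 0.20, edgeR adjusted p = 0.00952), and the call ended without Pkd1 KO 1. The gene therefore does not check the labels, and each direction given here rests on the labels alone.

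Most reads assigned to Pkd1 fell on a transcript other than the main coding form. Pkd1-201, annotated as protein coding, had 185, 207 and 137 counts in the KO-labelled libraries and 113, 50 and 166 in the controls. These ranges overlap, and the transcript did not pass the test (log2 fold change 0.56, SE 0.33, edgeR adjusted p = 0.290). Pkd1-205, annotated as a target of nonsense-mediated decay, had 841, 572 and 501 counts against 365, 214 and 355. All 3 KO-labelled values were higher, and the transcript rose (log2 fold change 0.88, SE 0.22, edgeR adjusted p = 0.0167). Pkd1-201 held 21.1% of the counts of all listed Pkd1 transcripts in KO-labelled and 23.3% in control libraries, and Pkd1-205 held 74.6% and 71.2%. Which exons Cre removes is not given in the labels, so neither transcript checks the deletion.

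Several properties of the libraries move with the labels and touch every count that follows. Total counts were 23070688 to 31837958. Xist, transcribed only from an inactive X, was at 0 to 0.171 CPM in the KO-labelled libraries and at 49.8 to 137 CPM in the controls. Y-linked RNA summed to 137 to 148 CPM in KO-labelled libraries, to 0.0660 and 0.0504 CPM in Pkd1 controls 1 and 2 and to 96.6 CPM in Pkd1 control 3, which thus held RNA of both kinds. Sex and the KO label cannot be told apart within the line. A pair of added terms were nevertheless tried, Xist presence and the share of Y-linked RNA. Xist presence follows the label in the Pkd1 line, so its effect is estimated in the Cep120 KO libraries. There it rests on Cep120 KO 3 (183 CPM) against Cep120 KO 1 and 2 (0.264 and 0.319 CPM). The Y-linked share also varies within the Pkd1 controls, through control 3. A call that ends under either term does not show that sex changed the gene. Counts under these terms are given beside lists whose calls they moved. Kidney genes known to be higher in adult males summed to 316 to 721.5 CPM in KO-labelled and 1498 to 3017 CPM in control libraries, with 2 of 6 higher and 2 lower, which came to none higher and 1 lower with Xist presence. Genes known to be higher in adult females were also lower in sum, at 370 to 570 CPM against 617 to 781 CPM. Of these 4, 1 was higher and 2 lower, which came to none and 1 with Xist presence. Pkd1 control 3 also had 30979 genes detected, against 23532 to 25216 in the other 5 libraries, and was the control nearest to the KO-labelled libraries for 53.7% of genes called higher and 56.7% of those called lower.

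Of 19890 genes tested, 8839 were called (44.4% at an edgeR adjusted p under 0.05), with 22.1% higher and 22.4% lower. The 23 lists hold 463 genes, of which 452 were tested, 173 rose and 140 fell, so 69.2% of them were called. Groups without overlap were common, since all KO-labelled libraries lay above all controls in 27.4% of genes tested and below them in 25.5%. The lists were written with results of these data known, so that share is a description. The median log2 fold change of all genes was -0.04, with 25% of genes under -0.75 and 25% over 0.49. Upper quartile scaling moved this median to -0.13 and the deposited log2 CPM moved it to 0.06.

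**Figure D1:**
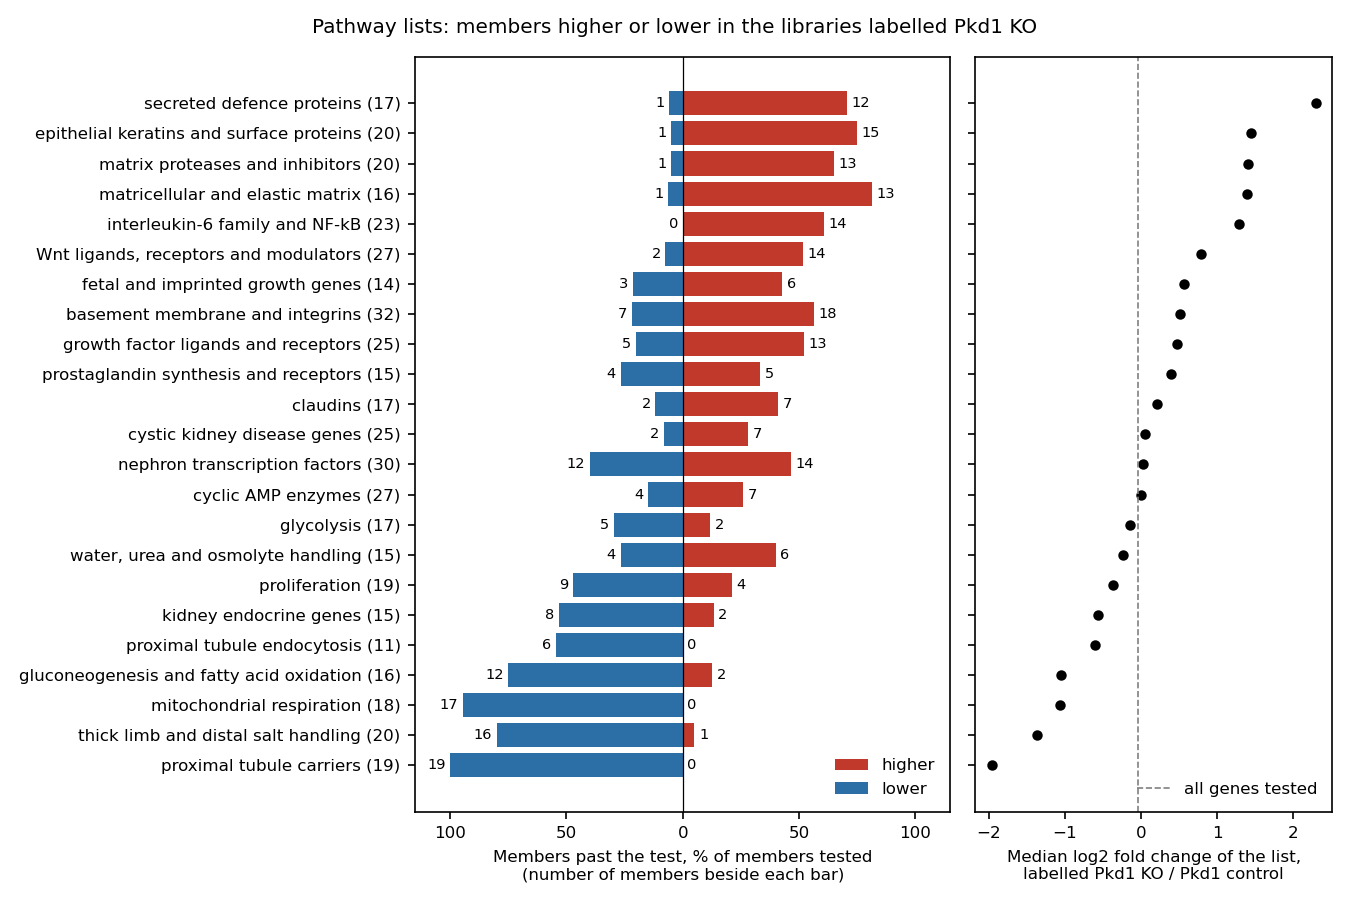
For each of the 23 pathway lists, the left panel shows the percentage of tested members called higher or lower in the libraries labelled Pkd1 KO, with the counts printed, and the right panel the list's median log2 fold change, where the dashed line is the median of all genes (-0.04). Proximal tubule carriers lie furthest to the lower side with 19 of 19 members lower, and secreted defence proteins furthest to the higher side with a median of 2.30.

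All 19 proximal tubule carriers tested fell, and their median log2 fold change was -1.96 beside -0.04 over all genes. They move glucose, amino acids, phosphate, sulfate, bicarbonate and organic anions, so members for each of these substrates were lower in the libraries labelled Pkd1 KO. In whole kidney, fewer proximal tubule cells and less of these RNAs per cell cannot be told apart. Summed CPM of 8 proximal tubule markers was 2476 to 4035 in the KO-labelled libraries and 9233 to 16232 in the controls, and all 8 fell. The part of cell number in the lower carrier levels was not tested.

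Slc26a1, a sulfate and oxalate exchanger, was at 8.46, 8.21 and 8.15 CPM in Pkd1 KO 1 to 3 and at 80.0, 73.9 and 58.7 CPM in the controls. The KO-labelled libraries were nearly alike and far under every control (log2 fold change -3.10, SE 0.17, edgeR adjusted p = 2.24e-07). Slc13a3, the basolateral carrier of dicarboxylates, was at 14.4, 21.0 and 26.0 CPM against 256, 216 and 202 CPM. Again no library overlapped, and the log2 fold change was -3.46 (SE 0.22). Slc5a2, the glucose carrier SGLT2, was at 16.2, 19.97 and 25.4 CPM against 687, 759 and 333 CPM, with Pkd1 control 3 the lowest control. Its log2 fold change was -4.85, while Slc5a1, the glucose carrier of the later proximal segment, fell by 1.82, from 106 ± 13.4 to 30.0 ± 8.87 CPM (SD, n = 3). Slc13a1, a further sulfate carrier, changed least, by -0.75, a call that ended without Pkd1 KO 1. With either added sex term 16 of the 19 were called.

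Among protein reabsorption genes those of the receptor fell. Of 11 endocytosis genes 6 fell and none rose, with a median of -0.60. Cubn, Lrp2 and Amn, the cubilin, megalin and amnionless subunits of the uptake receptor, fell by 2.76, 2.72 and 1.86. Lrp2 was at 62.0, 83.3 and 88.0 CPM in KO-labelled and 563, 468 and 508 CPM in control libraries, with no overlap. Of the lysosomal proteases in this list, Ctsb (0.19, SE 0.14), Ctsl (-0.13, SE 0.15) and Lgmn (0.33, SE 0.17) had overlapping groups and did not pass. Atp6v1a, a proton pump subunit that intercalated cells also use, fell by 0.95.

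Genes of gluconeogenesis, fructose handling and mitochondrial fuel use were mostly lower. Of 16 genes of gluconeogenesis and fatty acid oxidation 12 fell and 2 rose, with a median of -1.06. Khk, which starts fructose breakdown, was at 75.1, 112 and 91.5 CPM in Pkd1 KO 1 to 3 and 551, 652 and 355 CPM in the controls. Pcx, pyruvate carboxylase, was at 89.4, 105 and 139.9 CPM against 445, 433 and 389 CPM. Neither gene overlapped between groups, and the log2 fold changes were -2.48 (SE 0.26, edgeR adjusted p = 1.37e-05) and -1.92 (SE 0.17). Fbp1, the gluconeogenic fructose bisphosphatase, fell by 2.05, from 2458 ± 468 to 592 ± 151 CPM. Ppargc1a, a coactivator that raises mitochondrial number, fell by 1.51.

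Most mitochondrial genes of fatty acid oxidation fell, among them Acadm (-1.32), Cpt2 (-1.09) and Hadhb (-1.02), while Ehhadh, of the peroxisome, rose by 0.41, a call that 12 alternatives ended. Cpt1a, the carnitine transferase of the outer mitochondrial membrane, was at 192 ± 16.7 CPM and 187 ± 20.9 CPM, a log2 difference of 0.04 (SE 0.12, edgeR adjusted p = 0.822). With Xist presence or the share of Y-linked RNA as a term 6 of the 12 lower calls held and neither higher call did.

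Respiratory and citric acid cycle genes encoded in the nucleus were lower almost throughout, with 17 of 18 called and a median of -1.07. Ndufs1, a subunit of the first respiratory complex, was at 100.4, 108 and 126 CPM in the KO-labelled libraries and 360.0, 361 and 219 CPM in the controls. Pkd1 control 3 was the lowest control, still above every KO-labelled library, and Ndufs1 fell by 1.49 (SE 0.19, edgeR adjusted p = 4.5e-05). The change came to -0.82 with the share of Y-linked RNA as a term. Cs, citrate synthase, was the member not called (-0.39, edgeR adjusted p = 0.0511). Under Xist presence 3 of the 17 calls held and under the Y-linked share 2.

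Transcripts of the mitochondrial genome went the same way. They made up 3.47, 3.14 and 3.29% of all counts in Pkd1 KO 1 to 3 and 7.21, 9.14 and 6.58% in the controls. The groups did not overlap, and the exact two-sided permutation p was 0.1, the smallest that 3 against 3 libraries allow. All 13 protein-coding mitochondrial genes fell, by -2.25 to -0.81 with a median of -1.43.

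Glycolysis showed no common direction. Of 17 genes 2 rose and 5 fell, and the median was -0.14. Pfkfb3, which makes an activator of phosphofructokinase, rose by 1.08 (SE 0.15, edgeR adjusted p = 0.000137), at 55.5, 46.7 and 42.5 CPM against 25.2, 20.8 and 22.5 CPM without overlap. Slc2a1, the glucose carrier GLUT1, rose by 0.57, and the middle-pathway enzymes Tpi1 and Pgk1 fell by 0.92 and 0.85. Adding Xist presence ended the calls of Slc2a1, Tpi1 and Pgk1, as it did for all 5 lower calls of the list. Ldha (-0.39) and Pkm (0.35), the final enzymes, did not pass.

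Salt reabsorption genes of the thick limb and distal tubule were lower, with 16 of 20 members down, 1 up and a median of -1.37. Most channel and carrier genes fell, as did the kinases Wnk1 and Wnk4. Slc12a3, the thiazide-sensitive cotransporter, was at 39.0, 48.2 and 43.8 CPM in Pkd1 KO 1 to 3 and 241, 246 and 216 CPM in the controls. Wnk1, a kinase that activates the cotransporter, was at 56.7, 53.4 and 44.5 CPM against 151, 158 and 174 CPM and fell by 1.64 (SE 0.12, edgeR adjusted p = 1.41e-06). The groups were far apart for both genes. Klhl3, the adaptor through which WNK kinases are degraded, fell by 1.77 and Wnk4 by 1.26.

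Stk39, the SPAK kinase between WNK kinases and the cotransporters, was the member that rose. It was at 81.4, 73.8 and 77.9 CPM in the KO-labelled libraries and 22.6, 25.1 and 22.4 CPM in the controls, a rise of 1.73 (SE 0.11, edgeR adjusted p = 5.65e-07). The groups were far apart. A pair of markers of these segments did not pass, Cldn16 (-0.03, SE 0.16) and Trpm6 (0.37, SE 0.28), the paracellular and transcellular magnesium pathways, and both had overlapping groups. Summed CPM of 4 thick limb markers was 765 to 1259 against 2156 to 3209, and of 4 distal convoluted tubule markers 204 to 340 against 776 to 931. The part of cell number in these levels was not tested.

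**Figure D2:**
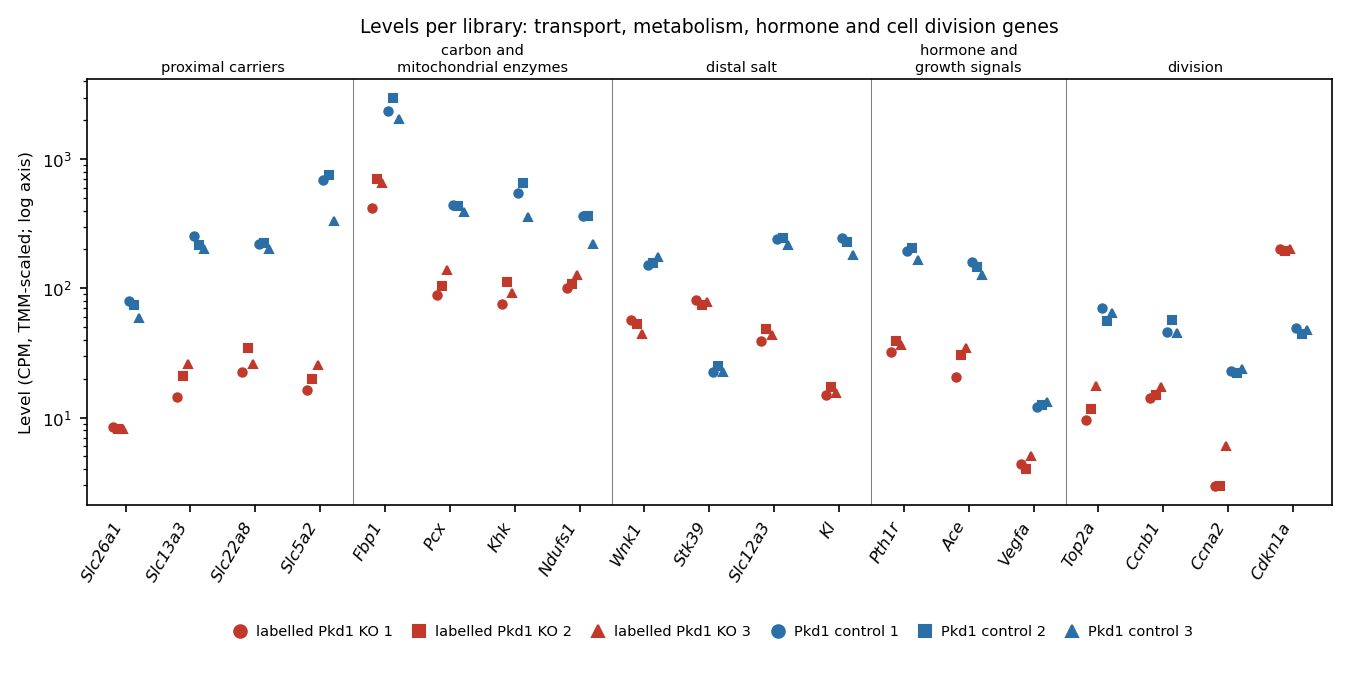
Normalised CPM on a log axis for genes of transport, metabolism, salt regulation, hormone response and proliferation, with 1 point per library for the 3 Pkd1 KO and 3 Pkd1 control libraries. Groups do not overlap for the genes drawn, and Stk39 and Cdkn1a are the ones that lie higher in the KO-labelled libraries.

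Hormone genes of the kidney were mostly lower. Of 15 endocrine genes 8 fell and 2 rose, with a median of -0.56, and 5 were lower under either sex term. From the salt handling list, Kl, the Klotho coreceptor for the phosphate hormone FGF23, was at 14.9, 17.2 and 15.5 CPM against 247, 229 and 182 CPM, with no overlap, and fell by 3.79 (SE 0.19, edgeR adjusted p = 1.6e-07). Pth1r, the parathyroid hormone receptor, was at 32.0, 39.4 and 36.1 CPM against 195, 207 and 167 CPM and fell by 2.40. The phosphate carrier Slc34a1, a target of both hormones, fell by 3.32.

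Angiotensin genes were in part lower. Ace, the peptidase that makes angiotensin II, fell by 2.34 (SE 0.21), and the receptor gene Agtr1a by 1.21 (SE 0.14). Ace was at 20.5, 30.4 and 34.6 CPM in KO-labelled libraries and 161, 146 and 127 CPM in the controls, without overlap. Ren1, renin, had overlapping groups (-0.56, SE 0.34), and Agt, its substrate, did not pass (-0.39, SE 0.18). Epo, erythropoietin, had no count in any KO-labelled library and a mean of 2.19 CPM in the controls. Against a floor of 3 counts over the KO-labelled group, 0.0339 CPM, it was at least 64.7-fold lower. Red cell RNA moved in the same direction, with 6 of 6 globin and red cell genes lower and a sum of 495 to 1452 CPM against 5968 to 10497 CPM, and the part of blood content was not tested.

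Water and solute genes changed both ways, those of the collecting duct mostly upward. In the list of 15 genes 6 rose and 4 fell, and 1 was lower with Xist presence and 2 with the Y-linked share. Avpr2, the vasopressin receptor, was at 84.7, 89.5 and 141 CPM in the KO-labelled libraries and 39.8, 35.6 and 31.3 CPM in the controls and rose by 1.56 (SE 0.19, edgeR adjusted p = 3.98e-05). Aqp3, the basolateral water channel of principal cells, was at 642, 615 and 984 CPM against 289.9, 292 and 232 CPM and rose by 1.46. Both were highest in Pkd1 KO 3, and no library overlapped. Aqp4 rose by 1.997 and the osmolyte carrier Slc6a6 by 0.90, whose call ended under either sex term.

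The aquaporins that fell are known mainly from other cells. Aqp1, of proximal tubule and thin limb, fell by 1.07, a call that ended under the sex terms, and Aqp11, an intracellular channel whose loss in mice is itself known to cause kidney cysts, fell by 2.004 (SE 0.23, edgeR adjusted p = 2.48e-05). Aqp11 was at 12.8, 20.5 and 16.1 CPM against 74.1, 79.0 and 45.1 CPM without overlap. Among aquaporins, TPM, the deposited level corrected for transcript length, gave Aqp2 and Aqp3 as the most abundant in the KO-labelled libraries, at 1332 ± 629 and 588 ± 172 TPM (SD, n = 3), and Aqp2, Aqp3 and Aqp1 in the controls, at 227 ± 184, 183 ± 19.3 and 78.6 ± 2.31 TPM. The values of Aqp2 and Aqp3 in the controls do not differ beyond their spread. Summed CPM of 8 principal cell markers was 2180 to 3759 in KO-labelled and 697 to 919 in control libraries, and 7 rose while Hsd11b2 fell by 0.41, a call that 5 alternatives ended.

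Enzymes that make and break cyclic AMP had no shared direction. Of 27 genes 7 rose and 4 fell, and the median was -0.00. Vasopressin signals through adenylate cyclases, and of 9 cyclase genes only Adcy7 was called (1.82, SE 0.62, edgeR adjusted p = 0.0291), a call that several alternatives ended. Adcy6, the cyclase best known from the collecting duct, was at 24.0 ± 2.77 CPM and 27.2 ± 4.87 CPM, a log2 difference of -0.18 (SE 0.16). Phosphodiesterases, which degrade cyclic AMP, carried most calls. Pde4b rose by 0.89, at 67.4, 62.8 and 56.1 CPM against 31.0, 31.6 and 38.1 CPM, Pde4a by 0.93 and Pde1b by 1.46, while Pde8a fell by 0.84. Groups did not overlap for these 4 genes, but each call ended when Xist presence was added, and then no member of the list was called. With the Y-linked share 2 were higher and 2 lower. Without Pkd1 KO 1, 3 members were higher, and 4 were without Pkd1 control 1 or 2 or with the replicate block. Without Pkd1 KO 3 or Pkd1 control 1, 2 were lower.

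Like most genes tested, most other genes of inherited cystic kidney disease did not pass the test. Of 25 genes 7 rose and 2 fell, with a median of 0.05, beside 22.1% higher and 22.4% lower over all genes. Under either sex term 4 were higher. Pkd2, whose product pairs with polycystin-1, was at 49.1 ± 5.57 CPM and 47.5 ± 4.47 CPM (log2 difference 0.05, SE 0.11), and Pkhd1, fibrocystin, at 59.6 ± 3.78 CPM and 62.5 ± 17.8 CPM (-0.07, SE 0.18). Ganab, Prkcsh, Sec63, Dnajb11 and Alg9, which serve the folding and glycosylation of polycystin-1, had log2 fold changes of -0.07 to 0.14 and none passed. Nek8, a ciliary kinase gene, rose by 1.05 (SE 0.14, edgeR adjusted p = 7.48e-05), at 24.1, 25.3 and 27.0 CPM against 12.02, 10.2 and 14.5 CPM. Glis2, a zinc finger gene mutated in nephronophthisis, was at 132, 126 and 141 CPM against 76.1, 70.2 and 71.4 CPM and rose by 0.87 (SE 0.09), and Vhl rose by 0.68. None of the 3 overlapped between groups. Umod, uromodulin, and Cep290, a ciliary gate protein, were the members that fell, by 1.37 and 0.86, and both calls ended under the sex terms.

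Growth factor genes changed in opposite ways within a family. Of 25 tested 13 rose and 5 fell, with a median of 0.47. In the epidermal growth factor family, the ligand Egf was at 7.31, 9.99 and 5.74 CPM in KO-labelled libraries and 461, 396 and 260.3 CPM in the controls, the lowest by fold in the list (-5.60). The ligand Btc, betacellulin, rose by 2.001, a call that ended with Xist presence, and the receptor Erbb3 rose by 1.51 (SE 0.19, edgeR adjusted p = 4.32e-05), at 95.7, 98.4 and 78.7 CPM against 27.9, 26.6 and 41.2 CPM. Groups were separate for these genes. Egfr rose by 0.67, which also ended under that term, while Met, the receptor of hepatocyte growth factor, did not pass (-0.18, SE 0.12).

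Vegfa, the ligand that endothelial cells depend on, was at 4.40, 3.99 and 5.02 CPM in Pkd1 KO 1 to 3 and 12.1, 12.5 and 13.3 CPM in the controls. It fell by 1.49 (SE 0.18, edgeR adjusted p = 4.13e-05) with no overlap. Summed CPM of 8 endothelial markers was 315 to 378 against 545 to 646, and 7 of the 8 fell, while 2 were lower with Xist presence and 4 with the Y-linked share. Igf1 fell by 1.56 and Fgf7, a stromal ligand for epithelium, rose by 2.34, and neither was called once Xist presence was added. There 1 member of the list was higher and 2 lower, and under the Y-linked share 4 and 3.

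Transcription factors changed both ways. Of 30 tested 14 rose and 12 fell, and the median was 0.02. Elf3, an epithelial factor of the ETS family, was at 627, 572 and 554 CPM in KO-labelled libraries and 77.3, 70.5 and 92.4 CPM in the controls and rose by 2.87 (SE 0.19, edgeR adjusted p = 6.39e-07). Pax8, a factor of kidney epithelium from its origin on, was at 184, 214 and 196 CPM against 90.1, 87.1 and 78.6 CPM and rose by 1.21 (SE 0.12). The collecting duct factor Gata3 rose by 1.91 and the epithelial factors Ehf and Grhl2 by 1.53 and 1.06. All 5 had separate groups.

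Factors of the proximal tubule and of mitochondrial genes were lower. Hnf4a, which drives proximal tubule maturation, was at 40.7, 54.3 and 50.2 CPM against 169, 169 and 129 CPM and fell by 1.69 (SE 0.15, edgeR adjusted p = 3.64e-06). Esrra, a partner of Ppargc1a, fell by 1.72. Tfcp2l1, a factor of intercalated and principal cells, was at 280.5 ± 3.74 CPM and 261 ± 3.06 CPM and did not pass (0.10, SE 0.10). With Xist presence 8 members were higher and 5 lower, and with the Y-linked share 12 and 7.

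Promoters of the genes that changed at least 2-fold were searched for short motifs of factors named above or known from injury. RefSeq windows on GRCm38.p6, from 250 bases before to 50 bases after a start, were matched by symbol for 13166 of 19847 genes. Matches were exact and counted on both strands. CAAAGTCCA, an HNF4 motif, was in 0.751% of 1997 windows of genes that fell, 0.495% of 1820 windows of genes that rose and 0.460% of all 16730 windows. TGANTCA, an AP-1 motif, was in 7.16% of windows of genes that fell and 9.78% of those that rose, against 5.89% of all. GGGANTTTC, an NF-kB motif, was in 0.901, 1.48 and 1.08% in the same order, and CATTCCA, a TEAD motif, in 3.71, 4.23 and 3.29%. A match is a description of the letters and not a binding site, and most changed genes held none of the rarer motifs.

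The windows that follow show the motif, in capitals, in its promoter context for genes of large fold change. Each runs 5′ to 3′ on the strand of the gene, and Krt23 holds the motif on the opposite strand. Aspdh, an aspartate dehydrogenase domain gene (log2 fold change -5.07), has the HNF4 motif at chr7:44465358-44465416, plus strand. Musk, a receptor kinase at 0.134 CPM in the controls and 2.19 CPM in KO-labelled libraries, has the NF-kB motif at chr4:58285805-58285863, plus strand, and Krt23 (3.30) has it at chr11:99493139-99493197, minus strand.
Aspdh: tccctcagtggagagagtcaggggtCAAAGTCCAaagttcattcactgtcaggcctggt
Musk: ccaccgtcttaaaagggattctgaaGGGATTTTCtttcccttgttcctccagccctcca
Krt23: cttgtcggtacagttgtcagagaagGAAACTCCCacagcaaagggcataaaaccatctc

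Genes of the epithelial surface and of keratin filaments were higher. Of 20 tested 15 rose and 1 fell, with a median of 1.45. Muc1, a transmembrane mucin of the apical surface, was at 1347, 1291 and 1314 CPM in Pkd1 KO 1 to 3 and 88.4, 72.1 and 83.7 CPM in Pkd1 controls 1 to 3. It had the smallest p of all genes in the comparison (log2 fold change 4.02, SE 0.17, edgeR adjusted p = 1.25e-07), and the KO-labelled libraries were nearly alike. Krt18, a keratin of simple epithelium, was at 1057, 1175 and 1077 CPM against 134, 145 and 205 CPM and rose by 2.77. Krt23 was at 35.8, 31.6 and 30.5 CPM against 3.35, 2.86 and 3.70 CPM and rose by 3.30 (SE 0.22).

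Keratins of simple epithelium rose, while the basal cell keratins Krt5 and Krt14 were not called either way. On the per-length scale Krt18, Krt19, Krt8 and Krt7 were the most abundant keratins of the list in KO-labelled libraries, at 1030.0 ± 18.1, 524 ± 91.1, 352 ± 13.0 and 338 ± 3.64 TPM (SD, n = 3), and Krt8 and Krt7 lay near each other. In the controls they were at 136 ± 51.2, 73.0 ± 44.9, 132 ± 31.0 and 97.1 ± 7.83 TPM. Krt5 and Krt14, keratins of basal cells in urothelium, overlapped between groups (0.42 and 1.73) and did not pass. Krt15 fell by 3.15 from 12.9 ± 10.9 to 1.45 ± 1.15 CPM until Xist presence was added. Urothelium markers summed to 247 CPM in Pkd1 KO 1, 32.3 and 37.9 CPM in Pkd1 KO 2 and 3 and 82.2 to 144 CPM in the controls, and none of the 6 was called, while 5 were lower without Pkd1 KO 1. Cdh16, the cadherin of all kidney tubules, did not pass (0.12, SE 0.14), while Cdh1, E-cadherin, rose by 1.31.

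Claudins, which set what passes between cells, changed both ways. Of 17 tested 7 rose and 2 fell, and 5 were lower without Pkd1 KO 3. Cldn3 was at 94.6, 119 and 86.8 CPM in KO-labelled libraries and 13.2, 16.3 and 19.2 CPM in the controls, a rise of 2.63 (SE 0.20, edgeR adjusted p = 1.78e-06). Cldn10, a cation or anion pore of proximal tubule and thick limb, was at 32.5, 49.2 and 45.7 CPM against 234, 288 and 174 CPM and fell by 2.45 (SE 0.23). Neither overlapped. Per length the order in the controls was led by Cldn2, the pore of the proximal tubule, and Cldn10, at 231 ± 41.0 and 200 ± 21.6 TPM, a pair within each other's spread, followed by Cldn8 and Cldn7 at 95.3 ± 16.7 and 88.1 ± 14.97 TPM. In KO-labelled libraries it was led by Cldn7 and Cldn8, barrier claudins of the collecting duct, at 272 ± 11.8 and 183 ± 8.09 TPM, followed by Cldn3 and Cldn2 at 122 ± 17.2 and 115.3 ± 23.1 TPM. The last 2 do not differ beyond their spread.

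Basement membrane and integrin genes differed by chain. Of 32 tested 18 rose and 7 fell, with a median of 0.51. Lama5, the laminin chain of mature tubules, was at 185, 171 and 166 CPM against 43.2, 39.7 and 56.5 CPM, and rose by 1.90 (SE 0.14, edgeR adjusted p = 1.41e-06). Lama3 and Lamb3, laminin chains of surface epithelium, rose by 1.68 and 3.35. Lamb3 was at 37.3, 38.2 and 39.8 CPM in KO-labelled libraries and 3.42, 3.57 and 4.31 CPM in controls, with no overlap. Lama1, a laminin chain of early and proximal tubules, fell by 2.17 (SE 0.20).

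Integrins, the receptors of these chains, also changed both ways. Itga3, Itgb4 and Itga2, subunits of laminin and collagen receptors, rose by 1.57, 2.86 and 2.42, and Itga3 was at 107, 101 and 95.5 CPM against 33.5, 28.8 and 39.7 CPM. Itgb8, which takes part in activation of latent TGF-beta, was at 10.2, 10.2 and 10.6 CPM against 50.2, 44.1 and 52.6 CPM and fell by 2.24 (SE 0.11, edgeR adjusted p = 1.39e-07). Both genes had separate groups, and the KO-labelled values of Itgb8 were nearly alike. Type IV collagen changed less, with Col4a1 at 0.07 (SE 0.15) and Col4a4 at 0.20, neither called, and Col4a3 higher by 0.72 until Xist presence was added. Under Xist presence 11 members of the list were higher and 3 lower, and under the Y-linked share 16 and 4.

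Matricellular and elastic matrix genes were higher, with 13 of 16 up, 1 down and a median of 1.395. Thbs1, thrombospondin, was at 585, 465 and 318 CPM in Pkd1 KO 1 to 3 and 55.2, 41.9 and 71.2 CPM in the controls, and Eln, elastin, at 536, 416 and 386 CPM against 76.6, 71.3 and 83.4 CPM. Ccn1, an early target of YAP, was at 245, 226 and 414 CPM against 33.5, 33.8 and 45.8 CPM, highest in Pkd1 KO 3. No library of these genes overlapped, and the log2 fold changes were 3.02 (SE 0.30), 2.53 (SE 0.23) and 2.97 (SE 0.34). Mfap5, a microfibril protein, rose by 3.07 (SE 0.40), and Tgm2, which cross-links matrix, fell by 0.83. With Xist presence 4 members were higher, and with the Y-linked share 5.

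Matrix proteases and their inhibitors were mostly higher. Of 20 tested 13 rose and 1 fell, with a median of 1.401. Mmp2 was at 311, 308 and 234 CPM against 79.6, 70.2 and 94.2 CPM, Adamts1 at 126, 125 and 119.6 CPM against 42.9, 37.5 and 54.1 CPM, and both had separate groups (log2 fold changes 1.81 and 1.46). Adamts4 rose by 1.95 and Plaur, the urokinase receptor, by 1.34, while Plau, urokinase, fell by 0.39 with overlapping groups, a call that several alternatives ended. The inhibitor Timp2 rose by 1.63 and Timp3, at 1019.8 ± 79.5 and 846 ± 119 CPM, did not pass (0.27, SE 0.13). Under the sex terms 6 and 8 members were higher. Summed CPM of 8 stroma and myofibroblast markers was 4359 to 6838 in KO-labelled and 952 to 1615 in control libraries, 6 of 8 rose, 3 under either sex term, and none was at 0, and the part of stromal cell number in the matrix levels was not tested.

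**Figure D3:**
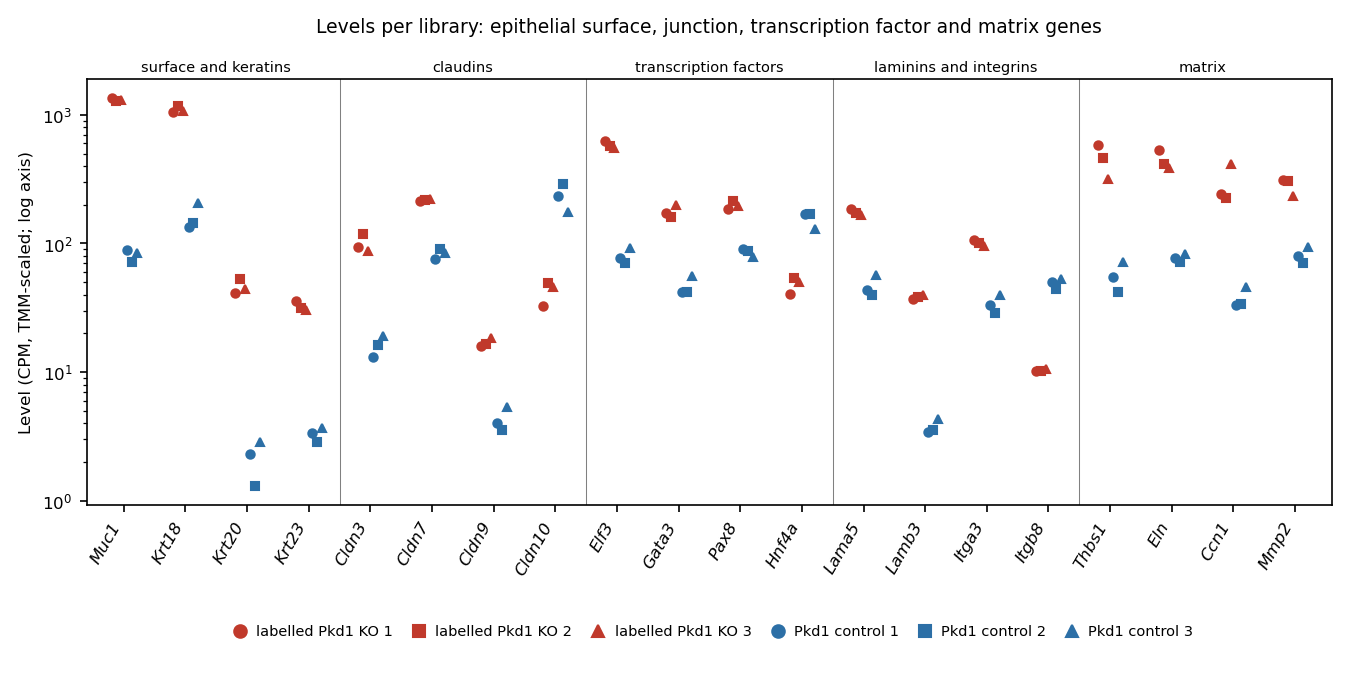
Normalised CPM on a log axis, 1 point per library, for genes of the epithelial surface, claudins, transcription factors, basement membrane and matrix in the 3 Pkd1 KO and 3 Pkd1 control libraries. The KO-labelled points lie above all controls for most genes drawn, and lie under them for Cldn10, Hnf4a and Itgb8.

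Secreted defence proteins had the highest median of any list, 2.30, with 12 of 17 tested up and 1 down. Saa3, a serum amyloid of local inflammation that shares sequence with its paralogs, was at 30.2, 22.6 and 13.3 CPM in KO-labelled libraries and 0.0977, 0.301 and 0.265 CPM in the controls, and Lbp, the lipopolysaccharide binding protein, at 75.1, 60.9 and 52.4 CPM against 20.6, 21.2 and 23.4 CPM. Groups were separate, and Lbp rose by 1.53 (SE 0.13, edgeR adjusted p = 2.78e-06). Wfdc2, a protease inhibitor of epithelium, rose by 1.22 from 406 ± 32.6 to 948 ± 92.4 CPM. The fibrinogen chains Fga, Fgb and Fgg rose by 2.33, 2.10 and 3.52, and these 3 calls ended under either sex term. Pigr and Defb1, further epithelial defence genes, did not pass (0.00 and 0.30). With Xist presence 5 members were higher and with the Y-linked share 7.

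Genes of interleukin-6 signalling and NF-kB were higher, with 14 of 23 up, none down and a median of 1.29. Of the ligands, Il11 and Clcf1 rose by 3.18 and 1.69, and Il6 did not pass (2.79, edgeR adjusted p = 0.0561). Of the transducers, Stat3 was at 202, 188 and 162 CPM against 67.4, 61.2 and 97.1 CPM and rose by 1.29 (SE 0.20), and the feedback inhibitor Socs3 was at 52.6, 45.9 and 51.6 CPM against 2.54, 3.47 and 11.7 CPM and rose by 3.08 (SE 0.50). Pkd1 control 3 was the highest control for both. Tnfrsf1a and Tnfrsf1b, the tumour necrosis factor receptors, rose by 0.77 and 2.43. The adhesion genes Icam1 (0.64) and Vcam1 (-0.26) did not pass.

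The count for this list moved with 1 control and with the sex terms. Without Pkd1 control 3, 20 members were higher, while with Xist presence as a term no member was called and with the Y-linked share 4 were higher and 2 lower. Macrophage markers moved with it. Their summed CPM was 714 to 1039 in KO-labelled libraries, 106 and 134 in Pkd1 controls 1 and 2 and 279 in Pkd1 control 3, all 8 rose and none was at 0, but none was called with Xist presence, and 4 were higher with the Y-linked share. T and B cell markers, by contrast, summed to 11.4 to 13.7 CPM against 14.7 to 17.3 CPM. Of the 8, 6 fell and 1 rose, with a median of -2.45. With Xist presence 2 were lower and none higher, and with the Y-linked share 5 and 1. The part of leukocyte number in these levels was not tested.

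Prostaglandin genes changed both ways. Of 15 tested 5 rose and 4 fell, which came to 3 and 1 with Xist presence and 4 and 2 with the Y-linked share. Ptgis, prostacyclin synthase, was at 45.4, 39.6 and 32.2 CPM against 9.77, 9.14 and 7.75 CPM and rose by 2.13 (SE 0.20, edgeR adjusted p = 6.5e-06), and the cyclooxygenase gene Ptgs1 rose by 0.68. Ptger3, a prostaglandin receptor of thick limb and collecting duct, was at 7.85, 8.96 and 8.94 CPM against 39.8, 28.8 and 24.2 CPM and fell by 1.85. Neither Ptgis nor Ptger3 overlapped between groups. Hpgd, which inactivates prostaglandins, fell by 1.32, a call that ended with Xist presence.

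Proliferation genes were lower in the KO-labelled libraries. Of 19 tested 9 fell and 4 rose, with a median of -0.36, and those that fell include the genes that mark cells in S phase and mitosis. Top2a, which untangles chromosomes, was at 9.55, 11.8 and 17.7 CPM against 70.02, 55.6 and 64.7 CPM, and Ccna2, cyclin A, at 2.98, 2.96 and 5.99 CPM against 23.1, 22.1 and 23.8 CPM. Both were highest among KO-labelled libraries in Pkd1 KO 3, and neither overlapped the controls (log2 fold changes -2.29, SE 0.20, and -2.53, SE 0.24). Mki67 fell by 2.36, Ccnb1 by 1.67 and Cdk1 by 1.37. The members that rose were Myc and 3 inhibitors of cyclin-dependent kinases, and with Xist presence 2 members of the list were higher and 6 lower. Cdkn1a, p21, was at 199.9, 196 and 201 CPM against 49.4, 44.4 and 47.7 CPM, a rise of 2.08 (SE 0.14, edgeR adjusted p = 7.9e-07), Cdkn2b rose by 3.57 and Cdkn1b by 0.78, the last a call that ended under the sex terms.

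Genes of fetal growth changed both ways. Of 14 tested 6 rose and 3 fell, with a median of 0.57. Under either sex term 2 were higher and 2 lower, and without Pkd1 KO 3 there were 5 lower. Cited1, of nephron progenitors, and Cdkn1c, an imprinted growth inhibitor, fell by 2.40 and 2.71, and Cdkn1c was at 16.4, 18.7 and 9.37 CPM against 96.0, 114 and 81.5 CPM. Its change came to -1.62 with Xist presence as a term. Igf2bp1, a fetal RNA-binding protein, was at 30.1, 29.0 and 35.2 CPM against 12.1, 13.4 and 8.09 CPM and rose by 1.49 (SE 0.18). Both had separate groups. Igf2 and H19, the classical imprinted pair, overlapped and did not pass (0.62 and 0.51).

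Wnt ligands known from the collecting duct rose, as did 2 dickkopf genes. Of 27 tested 14 rose and 2 fell, with a median of 0.79. Wnt7b, a collecting duct ligand, was at 32.7, 32.5 and 36.5 CPM in KO-labelled libraries and 8.24, 9.19 and 7.79 CPM in the controls and rose by 2.01 (SE 0.17, edgeR adjusted p = 2.6e-06). Wnt9b rose by 2.31 and Wnt4 by 1.75. Dkk3 and Dkk2, of the dickkopf family, rose by 1.81 and 1.37, and Dkk3 was at 225, 226 and 194 CPM against 57.5, 50.6 and 75.3 CPM without overlap. Axin2 and Lef1, direct targets of beta-catenin, rose by 1.43 and 1.503, the latter a call that ended with Xist presence. Sfrp2, a secreted Wnt inhibitor, and the receptor Fzd7 fell by 1.23 and 0.63, the call of Fzd7 ending in 7 alternatives, and Wnt5a (-0.14) and Wnt11 (0.09) did not pass. With Xist presence 6 members were higher and none lower, and with the Y-linked share 8 and 1.

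Measured by the difference in mean CPM, which is not corrected for length, the largest rises among called nuclear genes without overlap were in Spp1, Actb, Eef1a1, Sparc, Apoe, Ubb, Ctsd and Acta2. Spp1, osteopontin, was at 8748, 10704 and 10372 CPM in the KO-labelled libraries and 2927, 3579 and 5878 CPM in the controls. The other 7 had log2 fold changes of 0.78, 0.85, 0.99, 1.11, 0.39, 1.42 and 2.94. Of these 8, Eef1a1 and Acta2 kept their calls in every alternative run, Ubb lost its call in 16 of them, and the other 5 lost theirs with Xist presence. Acta2 was at 1998, 1869.8 and 1456 CPM against 201, 185 and 310.0 CPM.

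The largest falls in CPM among such genes included Serpina6, Hbb-bs, Fxyd2, Slc34a1, Ftl1, Ass1 and Mdh1. Fxyd2, the subunit that tunes the sodium pump of the nephron, was at 700.4, 1099 and 893 CPM against 3513, 4567 and 2834 CPM and fell by 2.02 (SE 0.24). Ass1, which makes arginine in the proximal tubule, was at 364, 577 and 326 CPM against 3010.4, 3446 and 1464 CPM and fell by 2.64, and Mdh1, cytosolic malate dehydrogenase, fell by 2.09. With the share of Y-linked RNA as a term these came to -1.64 and -1.37. Groups were separate for all 3, which the choice of these genes required. Serpina6 was at 352, 694 and 1681 CPM against 5824, 6571 and 1790.3 CPM. Its groups were close to overlap, and it lost its call under either sex term, as did Ftl1. Hbb-bs, a globin gene that shares sequence with Hbb-bt, is uncertain on its own.

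Abundant genes with the largest ratios were taken only where the groups did not overlap. Some separated the groups evenly and others rested on few libraries. Msln, mesothelin, was at 297, 268 and 271 CPM against 5.83, 5.22 and 14.5 CPM, and Actg2, an actin of smooth muscle, at 589, 435 and 288 CPM against 7.26, 9.90 and 16.6 CPM. The log2 fold changes were 5.03 (SE 0.53) and 5.28 (SE 0.50). Col12a1 was at 844, 659 and 399 CPM against 14.8, 12.2 and 53.0 CPM, with control 3 the highest control, and its rise of 4.57 came to 3.03 with the share of Y-linked RNA as a term. Slc51a and Slc10a1, bile acid carriers, fell by 4.78 and 4.77, and Slc10a1 was at 4.23, 5.77 and 12.3 CPM against 263, 228 and 114 CPM.

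Cyp11b1, a steroid hydroxylase of the adrenal cortex, was at 0.711, 0.902 and 438 CPM in Pkd1 KO 1 to 3 and at 0 in each control, so its level came from Pkd1 KO 3. All 3 of the 6 adrenal markers that were tested rose, 1 did without Pkd1 KO 3 and none under either sex term. The markers summed to 1183 CPM in that library and to 1.91 to 4.23 CPM in the other 5. Hp, haptoglobin, was at 779, 34.1 and 451 CPM against 8.11, 7.79 and 3.33 CPM, with Pkd1 KO 2 far under the others. Ucp1, the uncoupling protein of brown fat, was at 7.48, 0.161 and 1.11 CPM against 184, 239 and 27.8 CPM, and adipose markers summed to 956, 43.7 and 472 CPM in Pkd1 KO 1 to 3 and 300 to 1060 CPM in the controls. Whether tissue beside the kidney entered these libraries was not tested.

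The Pkd1 effect was then set against that of the Cep120 line, which shares no library with it, by a test of the difference itself. It was called for 5598 of 19890 genes (28.1%), and for 227 of the 452 pathway members (50.2%). The difference was called for all 19 proximal tubule carriers, 15 of 20 salt handling genes, 15 of 20 keratin and surface genes and 20 of 30 transcription factors. For Muc1 the difference was 4.15 (SE 0.22, edgeR adjusted p = 2.25e-06), since its Cep120 log2 fold change was -0.13. For Slc26a1 it was -3.33 (SE 0.23), for Kl -3.69 (SE 0.25) and for Cdkn1a 2.34 (SE 0.19).

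A smaller share was called in other lists, among them 7 of 16 matricellular genes, 8 of 20 proteases and inhibitors and 6 of 23 interleukin-6 and NF-kB genes. No member of the 23 lists was called in the Cep120 comparison itself. Socs3 rose by 3.08 in the Pkd1 comparison and was not called in the Cep120 comparison (1.57, SE 0.52, edgeR adjusted p = 0.757). Its difference was 1.51 (SE 0.70, edgeR adjusted p = 0.122). Spp1 had a difference of 0.99 (SE 0.43, edgeR adjusted p = 0.104). A difference that misses the threshold does not show that the lines act alike. The lines also differ in Xist and in genes detected, and the part of these in the difference was not tested.

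**Figure D4:**
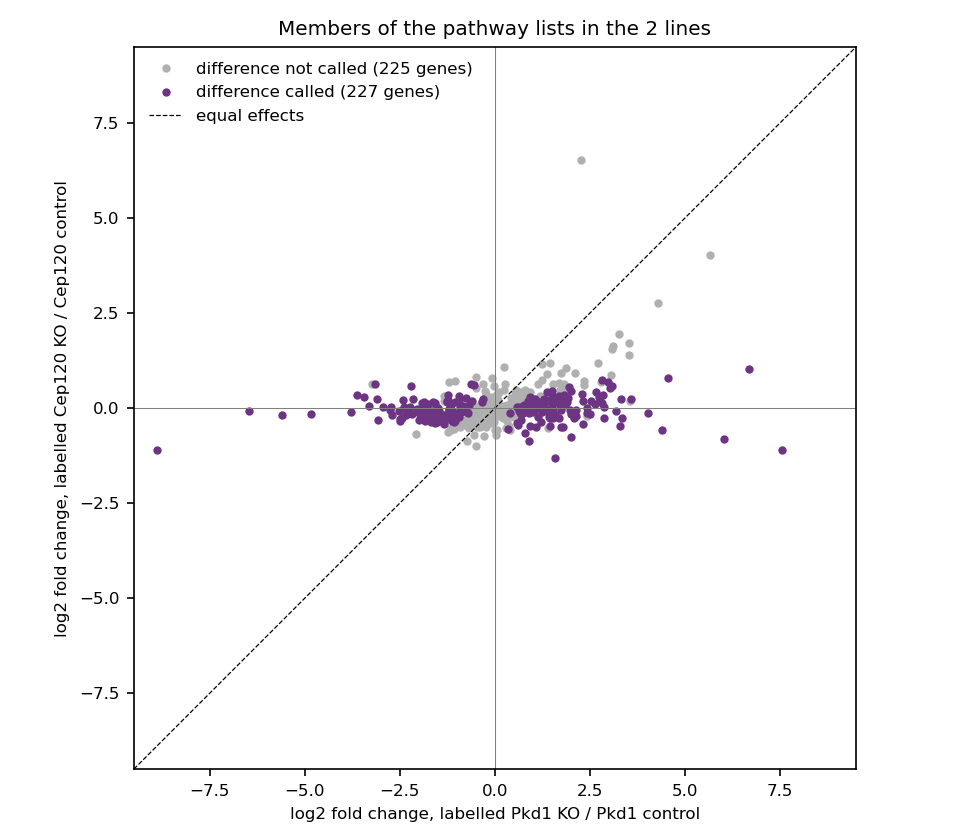
Log2 fold change in the Pkd1 comparison (horizontal) against that in the Cep120 comparison (vertical) for the 452 tested pathway members, with the 227 whose difference was called and the 225 whose difference was not drawn apart and equal effects on the dashed line. Pkd1 values spread from -8.89 to 7.56 with a median of 0.11, and Cep120 values from -1.31 to 6.52 with a median of -0.02. The lower and upper quartiles are -0.90 and 1.13 for Pkd1 and -0.21 and 0.19 for Cep120.

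Transcript counts, an estimate of how reads divide among the forms of a gene, gave 7101 of 40007 transcripts called (17.7%), 8.61% higher and 9.14% lower. The uncertainty of dividing reads among forms is not known here and is not part of the transcript or usage p-values. The transcript table holds 68.7 to 73.1% of each library's gene total, so some forms are not analysed here. A change of usage, in which forms of 1 gene change by different factors, was called for 770 of 9310 genes (8.27%) by edgeR's test on the gene and for 602 (6.47%) by limma's test of each transcript against the rest of its gene. Both tests called 382 (4.10%). In 175 genes the most abundant form was 1 transcript in all 3 KO-labelled libraries and another in all 3 controls, and both tests called 52 of these.

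Cox16, an assembly factor of the respiratory oxidase, had the smallest p among the 175. Cox16-206 held 49.1, 51.7 and 46.2% of its listed transcripts in Pkd1 KO 1 to 3 and 8.07, 13.7 and 12.9% in the controls, and Cox16-202 held 17.2, 13.1 and 20.9% against 75.3, 70.7 and 65.9% (edgeR adjusted p = 8.51e-09, limma adjusted p = 0.00198). In level Cox16-206 rose by 1.30 on the log2 scale and Cox16-202 fell by 2.84. Both forms are protein coding, and their shares did not overlap between groups. Cox16-209, a processed transcript, held a mean of 28.9% in KO-labelled libraries, above Cox16-202, and 12.6% in the controls.

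Papss2, which makes the sulfate donor for matrix glycans, changed by loss of a form. Papss2-203 held 60.6, 50.9 and 59.0% in KO-labelled libraries against 26.4, 24.1 and 32.8%, although its level did not pass (log2 fold change 0.02), and Papss2-201 fell by 2.01. Lima1, an actin-bundling protein of epithelium, changed by gain. Lima1-202 held 61.1, 60.8 and 54.8% against 39.0, 32.2 and 37.4% and rose by 1.24, while Lima1-201 did not pass (-0.06).

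App, the amyloid precursor, had App-203 at 40.9, 42.2 and 47.1% against 19.5, 20.5 and 21.8% and App-204 at 10.7, 10.8 and 6.30% against 37.8, 35.5 and 28.5%. A further form, App-202, held a mean of 38.9% in KO-labelled libraries, close to App-203, and 25.6% in the controls. Entpd5, a nucleotidase of the endoplasmic reticulum, had Entpd5-205 at 40.8, 45.8 and 39.3% against 13.2, 16.9 and 23.8%. In Pkd1 control 3 its leading form Entpd5-206 held 34.5% and Entpd5-203 held 34.1%. The shares of App-203, App-204 and Entpd5-205 did not overlap between groups. Banp, Ndufa3 and Tmem106a were also named by the rule, but their listed transcripts hold 35.1, 9.15 and 33.0% of the gene's counts, so their shares describe a minor part of the gene.

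**Figure D5:**
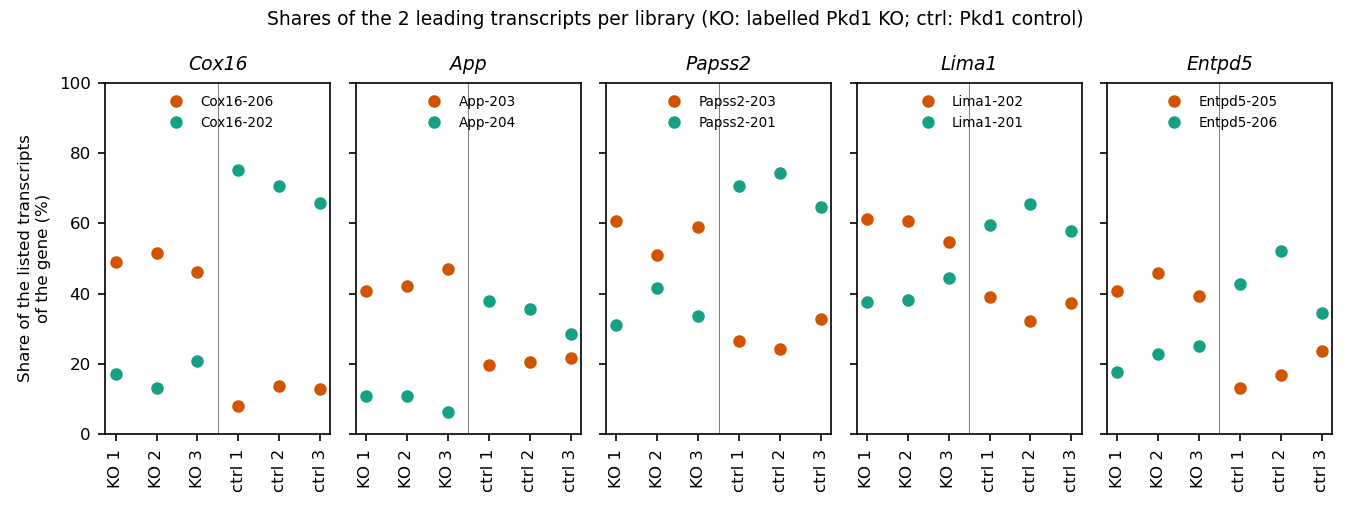
Share of each gene's listed transcripts (percent) held by the form that leads in the KO-labelled libraries and the form that leads in the controls, 1 point per library, for Cox16, App, Papss2, Lima1 and Entpd5. In each gene another form leads in the 3 Pkd1 KO than in the 3 Pkd1 control libraries. Shares of the drawn forms do not overlap between groups. Further forms are not drawn, and App-202 (38.9% and 25.6%) and Cox16-209 (28.9% and 12.6%, KO and control means) rank between the drawn forms in some libraries.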

How the data were processed

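RNA of whole kidney at postnatal day 15 was sequenced in 12 libraries, prepared with a SMARTer Ultra Low kit per the labels' protocols, and 6 of them are compared here. Salmon 0.8.2, STAR 2.5.1a, featureCounts 1.4.6-p5 of Subread, bcl2fastq and the mm9 build appear in the submitters' processing notes without a stated role, and no source used here says whether reads were counted by strand. The authors deposited estimated counts per gene and per transcript. Of the genes, 21.6% have a value that is not whole, and values were rounded. The deposited gene table has 55774 lines for 55487 identifiers, and the 287 repeated lines were counted once. Deposited TPM, computed by the authors, were used to compare levels between genes, and deposited log2 CPM, moderated with a prior count that is not stated, served as an alternative.

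Gene counts were fitted with edgeR 4.0.16 (R 4.3.3) by quasi-likelihood over all 4 groups and 12 libraries, with TMM scaling, edgeR's filter on low counts (19890 genes kept), Benjamini-Hochberg adjustment and a threshold of 0.05. CPM in the text are TMM-scaled counts. Transcripts were fitted the same way. Transcript usage was tested with edgeR's gene test and with limma 3.58.1 on each transcript against the rest of its gene. On simulated data the edgeR usage test made more false calls than its threshold allows, so genes are reported where both tests passed. The second test and the restriction to genes whose listed transcripts hold at least 99% of the gene count were added after seeing the data.

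Named genes are, per pathway list, up to 4 members with the smallest p. To these come the 8 largest rises and falls in CPM, the 6 largest by log2 fold change at a mean log2 CPM of at least 5, both without overlap between groups, and 8 genes with a switch of the leading transcript. Other list members are named by their role and were chosen with values known. Some genes named by the rule, and results that need them, are not reported here. The lists and members were chosen with earlier results of these data known. Cyp2c69, of a family with near-identical copies, was left out of the promoter windows. Same-numbered libraries did not deviate together (correlations -0.096, -0.043 and -0.136), so the numbers were not used as pairs. Between replicates of the Pkd1 line the chi-square per gene was 28.3 to 76.5, so none of these libraries was a copy of another. Cep120 controls 1 and 2 were much closer to each other, at 5.80. Total counts were 23070688 to 31837958 per library, and precision depends on these and on the spread between libraries. Alternatives were other scalings, filters and tools, each library left out, a replicate block, 6 libraries alone, and a term for Xist presence or for Y-linked RNA.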

Additional observations from a re-analysis of the deposited data

Results flagged for a closer look

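The effect of the KO label differed between the Pkd1 and Cep120 lines in 5598 genes by edgeR's test of the difference (28.1% of those tested), of which 2764 were higher and 2834 lower in the Pkd1 comparison. The lines share no library. In the Pkd1 line Xist presence follows the label, and in the Cep120 KO libraries it varies within the group, so a difference between lines and a difference in sex cannot be told apart.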

How the results depend on the processing

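Of 388 called genes in the lists or named, 173 kept their call in every alternative run and 147 lost it only with Xist presence or the share of Y-linked RNA as a term. Xist presence left 2002 genes called and 22.4% of the original calls, the Y-linked share 4077 genes and 41.8%, and a change of at least 2-fold left 4588. No gene called in the main comparison was called in the opposite direction in any alternative. Leaving out 1 library gave 7277 to 8680 genes, 4225 to 5781 differences between lines and 4899 to 6665 transcripts. By edgeR's usage test alone, leaving out 1 library gave 467 to 705 genes with changed usage. That test gave 252 by the Simes combination and 452 with the replicate block. The block also gave 7804 genes, 4363 differences and 5391 transcripts. The 382 genes called by both usage tests were not followed through these alternatives. Leaving out both replicate 3 controls, added after seeing the data, gave 9138 genes. The 6 Pkd1 libraries fitted alone gave 7633 of 17566 genes tested and 5380 of 32948 transcripts. They gave 525 of 7970 genes with changed usage by edgeR's test. Scalings and tools gave 8682 (voom) to 9379 (DESeq2) genes, and no filter 9246. Upper quartile scaling split the calls into 3779 higher and 5095 lower, and the deposited log2 CPM into 4930 and 3810, against 4388 and 4451.

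Some single genes turned sign, and the cause was not tested. With Xist presence Ucp1 came to 2.94, Akr1b3 to 1.65, Sox9 to -0.21 and C3 to -0.042. With the Y-linked share Cyp11b1 came to -19.64, Ucp1 to 0.23, Akr1b3 to 1.39, Adcy7 to -0.015, C3 to -0.17, Lif to -0.12, Tnfaip3 to -1.15 and Atp6v0d2 to 0.66. Leaving out 1 library gave Krt5 -1.85 to 0.95, Upk1b -1.21 to 0.82, H19 -1.30 to 1.02 and Dlk1 -2.86 to 1.28. The negative ends came without Pkd1 KO 1 for Krt5 and Upk1b and without Pkd1 KO 3 for H19 and Dlk1.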

Other observations

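Intercalated cell and podocyte genes were not among the pathways followed. Summed CPM of 7 intercalated cell markers was 202 to 237 in the libraries labelled Pkd1 KO and 218 to 399 in the controls, 5 fell and 1 rose, 3 were lower under either sex term, and Pkd1 control 3 lay within the KO-labelled range. Summed CPM of 7 podocyte markers was 116 to 154 against 214 to 248, and 2 fell while none rose. Of 4 neutrophil markers tested 1 rose and none fell, a call that either sex term ended, with sums of 5.89 to 11.2 CPM against 2.14 to 5.65 CPM. General kidney epithelium markers summed to 1421 to 1604 CPM against 1053 to 1437 CPM, and 4 of 5 rose, while 2 were higher with Xist presence.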
